A study of Homo sapiens with 10 samples.

Results

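The genes described here encode amino acid transporters of 6 solute carrier families, with SLC7A5 among them. They were taken as every protein-coding gene whose symbol starts with SLC1A, SLC3A, SLC7A, SLC36A, SLC38A or SLC43A, which gave 41 of the 19975 protein-coding genes and of the 60603 genes listed in all. One of the 41, SLC7A6OS, shares the prefix because it lies on the opposite strand to SLC7A6 and is not a transporter, and SLC43A3 is known as a carrier of purine nucleobases rather than amino acids. RNA was measured by mRNA-seq in NB4, a cell line from an acute promyelocytic leukemia, in 2 experiments. In the knockdown experiment, the cells carried pLKO.1 puro, either empty (EV) or with 1 of the GSE1 hairpins shA1 and shB2, and RNA was taken 48 h after transduction. In the inhibitor experiment, untransduced cells received DMSO or 2 µM of the LSD1 inhibitor MC2580 for 24 h. Each of the 5 conditions had 2 libraries, 10 in all. All cells were of 1 line. No label says whether the replicates came from separate cultures, and the paper calls them independent biological replicates. The titles write the compound as MC280 and the treatment label as MC2580.

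The value used here is the authors' base mean, an average of size-factor-normalized counts. It was taken to cover the 6 libraries of the knockdown experiment or the 4 libraries of the inhibitor experiment. In the knockdown experiment the base mean stands under the code of shB2 alone, and whether it covers all 6 libraries was not checked. It is 1 value per gene and experiment and carries no standard deviation, so treated and control cells are averaged together and neither a difference between conditions nor an error can be given from it. Order and ratios are therefore descriptions without a test. The depth of each library is unknown here.

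Cells take up amino acids through carriers that differ in substrate and in what drives them. The SLC7 light chains reach the plasma membrane as pairs with a heavy chain, SLC3A2 (the CD98 heavy chain) or SLC3A1, and SLC7A5 (LAT1) imports leucine and other large neutral amino acids in exchange for intracellular ones such as glutamine. SLC1A5 and the SLC38 carriers bring in glutamine and other small neutral amino acids, and the supply of leucine, arginine and glutamine is sensed by mTORC1 at the lysosome. Leukemic and other dividing cells are known for high SLC7A5, SLC3A2 and SLC1A5.

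The promoters of several of these genes carry short motifs that transcription factors of amino acid and growth control are known to use. They are shown because SLC7A5 and its heavy chain SLC3A2 are among the genes that carry them. SLC1A5, SLC38A2 and SLC38A10, which are abundant too, hold none of these motifs within the windows searched here. The windows are RefSeq promoters on GRCh38.p14, which cover 250 bases before to 50 bases after a start site of a gene. Each is printed 5′ to 3′ on the strand of the gene with the motif in capitals. For SLC3A2 and SLC38A1 this start site lies inside the gene as annotated. Other start sites and sequence outside the windows, introns included, were not searched, so a gene without a match may carry the motif elsewhere. The C/EBP-ATF response element, searched as TGATGNAA on both strands, was found in the windows of SLC3A2, SLC7A1, SLC38A1 and SLC1A3, the first of them on the opposite strand. The E-box CACGTG, which reads the same on both strands and is a binding motif of MYC and related factors, was found in those of SLC7A5, SLC38A5, SLC43A1, SLC38A7 and SLC1A7. None of these matches overlaps another.
SLC3A2, chr11:62881719-62881748, plus strand: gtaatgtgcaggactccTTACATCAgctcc
SLC7A1, chr13:29595663-29595692, minus strand: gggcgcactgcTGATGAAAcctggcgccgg
SLC38A1, chr12:46266502-46266531, minus strand: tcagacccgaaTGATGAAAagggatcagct
SLC7A5, chr16:87869620-87869649, minus strand: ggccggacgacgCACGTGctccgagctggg
SLC38A5, chrX:48470449-48470478, minus strand: tcctgtagcggaCACGTGgcttgcctggga
SLC43A1, chr11:57515797-57515826, minus strand: cagcgggcgagtCACGTGcgcgtgaaactc

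Before the levels, the labels were compared with marker genes. GSE1, the target of both hairpins, had a base mean of 2963 in the knockdown experiment and 4441 in the inhibitor experiment, and because EV and hairpin libraries share the first value, it does not check the knockdown. KDM1A, which encodes LSD1, had base means of 7648 and 6285. Of 8 markers of promyelocytes and myeloid cells, 7 reached a base mean of 10 in each experiment, led by MPO at 506765 and 824818. The exception was ELANE, a promyelocyte granule gene, at 1.10 and 3.87. Of 12 markers of other lineages, 8 reached 10 in the knockdown experiment and 6 in the inhibitor experiment, with PECAM1, which myeloid cells also express, at 2048 and 689, CD3D at 866 and 869, and EPCAM at 432 and 403. HBA1 was at 0 in both.

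Of the 41 genes, 25 reached a base mean of 10 in each experiment, and they were the same 25 genes. That is 61.0%, against 63.1% of all protein-coding genes in the knockdown experiment and 63.0% in the inhibitor experiment, so the share was close to that of protein-coding genes as a whole. The remaining 16 genes were at 6.27 or less in the knockdown experiment and at 7.54 or less in the inhibitor experiment, whereas the lowest of the 25 were SLC7A8 at 18.0 and 12.0. In that experiment SLC7A13, SLC38A4 and SLC36A3 were listed at 0, and in the inhibitor experiment SLC7A13, SLC36A3, SLC7A3, SLC36A2 and SLC7A9.

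Levels of different genes were compared as base mean per kilobase of the longest annotated transcript. By this measure the median of the 25 genes was 372 in the knockdown experiment, against 273 over the 12609 protein-coding genes that reached a base mean of 10, and 333 against 248 over 12583 genes in the inhibitor experiment. The summed level lay mostly in few genes. Levels differ widely among genes, and the same share was not computed for other sets of 41 genes. The 5 highest, SLC1A5, SLC43A3, SLC7A5, SLC3A2 and SLC38A10, held 78.9% of the summed level of all 41 genes in the knockdown experiment and 80.9% in the inhibitor experiment. The place of SLC38A10 among them rests on the length, and with the canonical transcript SLC38A5 took it in both experiments. SLC43A3, the carrier of purine nucleobases, alone held 15.1% of the sum in the knockdown experiment and 13.9% in the inhibitor experiment.

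The order of the 25 genes was nearly the same in both experiments, which share no library. Spearman's rho between the levels per kilobase was 0.99 over the 25 genes, against 0.98 over 12335 protein-coding genes. This is a correlation across genes, which are not independent replicates, and the points share the cell line, the transcript lengths and the authors' processing. No gene of the 25 moved by more than 2 places, and 12 kept their place. As no error is known, neighbours in the order cannot be told apart by a test.

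**Figure D1:**
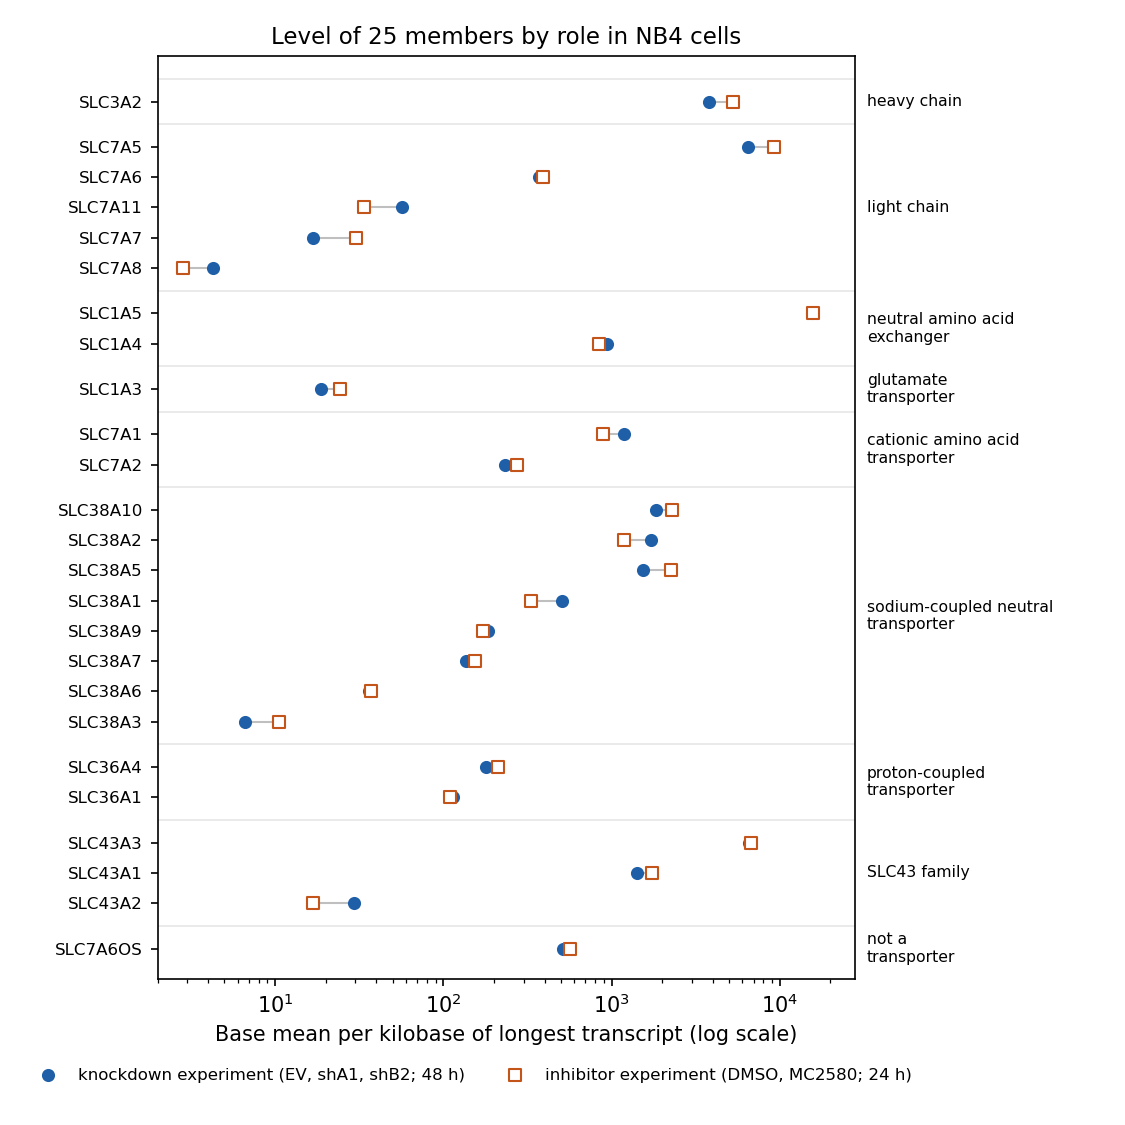
Base mean per kilobase of the longest transcript (x axis, log scale) for the 25 genes that reached a base mean of 10 (y axis, grouped by role). The group labelled proton-coupled stands for the SLC36 family as a whole, whatever the coupling of each gene. Filled circles show the knockdown experiment, taken as the average of its 6 libraries. Open squares show the average of the 4 libraries of the inhibitor experiment. SLC1A5 stands highest at 15635 and 15651, and within the light chains SLC7A5 lies far above SLC7A6, SLC7A11, SLC7A7 and SLC7A8; no error bars can be drawn, as 1 value exists per gene and experiment.

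The heavy chain SLC3A2 (ENSG00000168003.16, chromosome 11, 62856004 to 62888880, plus strand, GRCh38) had base means of 10760.0 in the knockdown experiment and 15063 in the inhibitor experiment. Its level per kilobase was 3785 and 5298, above 97.0% and 97.8% of protein-coding genes. The other heavy chain, SLC3A1 (rBAT), which pairs with SLC7A9 in kidney and intestine, had base means of 0.990 and 0.986. Of the 2 heavy chains, SLC3A2 alone reached a base mean of 10. SLC7A9 and SLC7A13, the light chains known to pair with SLC3A1, were low too, at 0.225 and 0 for SLC7A9 and 0 in both experiments for SLC7A13.

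SLC7A5 (ENSG00000103257.9, chromosome 16, 87830023 to 87869507, minus strand) had base means of 29479 in the knockdown experiment and 42053 in the inhibitor experiment. Per kilobase it stood at 6470.4 and 9230.1, above 98.4% and 98.8% of protein-coding genes. Among the 6 light chains known to pair with SLC3A2, it alone made up 93.5% of the summed level per kilobase in the knockdown experiment and 95.3% in the inhibitor experiment. SLC7A5 was 1.71 times the level of SLC3A2 in the knockdown experiment and 1.74 times in the inhibitor experiment. This ratio rests on the transcript length given to SLC3A2: with the canonical transcript of each gene it was 1.13 and 1.16, and with the union of all exons it was 3.68 and 3.75, so SLC7A5 was the higher of the pair under each length, but by an uncertain factor. SLC7A5P1, an unprocessed pseudogene of SLC7A5 that could draw some of its reads, had base means of 53.1 and 87.6, and SLC7A5P2 was at 0 in both.

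The other light chains were far lower. SLC7A6 (y+LAT2), which exchanges cationic for neutral amino acids, had levels per kilobase of 372 and 389. SLC7A11 (xCT), the cystine and glutamate exchanger that feeds glutathione synthesis, had 56.8 in the knockdown experiment and 33.9 in the inhibitor experiment. SLC7A7 (y+LAT1), a relative of SLC7A6 known in monocytes and macrophages, had 16.8 and 30.3. SLC7A11 was the higher of the pair in the knockdown experiment under each length. In the inhibitor experiment the order turned with the length, since SLC7A7 had 43.9 with its canonical transcript. SLC7A8 (LAT2) had base means of only 18.0 and 12.0, and SLC7A10 (Asc-1) was at 0.841 and 1.84.

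SLC1A5 (ASCT2, ENSG00000105281.12, chromosome 19, 46774883 to 46788594, minus strand), which exchanges glutamine and other neutral amino acids, was the most abundant of the 41 genes. Its base means were 45059 and 45106, and its levels per kilobase of 15635 and 15651 lay above 99.4% and 99.3% of protein-coding genes. Per kilobase it exceeded SLC7A5 2.42-fold in the knockdown experiment and 1.70-fold in the inhibitor experiment. SLC1A4 (ASCT1), the related exchanger of alanine, serine and cysteine, had levels per kilobase of 934 and 840, so that SLC1A5 stood 16.7-fold and 18.6-fold above it. The 5 glutamate transporters of the same family differed from this pair, as only SLC1A3, at base means of 129 and 168, reached 10. SLC1A1, SLC1A2, SLC1A6 and SLC1A7 lay between 0.561 and 7.54 over both experiments.

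Cationic amino acids such as arginine and lysine enter through SLC7A1 to SLC7A3. SLC7A1 (CAT1, chromosome 13), the widely expressed carrier, had base means of 8712 and 6495 and levels per kilobase of 1186 and 885. SLC7A2 (CAT2), which is known from liver and activated macrophages, had base means of 1776 and 2086 and levels per kilobase of 233 and 273. SLC7A1 thus exceeded SLC7A2 5.10-fold per kilobase in the knockdown experiment and 3.24-fold in the inhibitor experiment. SLC7A3, SLC7A4 and SLC7A14 stayed at 2.17 or less.

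The sodium-coupled carriers of the SLC38 family formed the largest group, with 11 genes, of which 8 reached a base mean of 10. The highest per kilobase of the longest transcript were SLC38A10, whose function is little known, at 1837 and 2302, SLC38A2 at 1721 and 1182, and SLC38A5 at 1531 and 2263. SLC38A2 (SNAT2) is the amino acid-regulated carrier of system A, and SLC38A5 (SNAT5) carries glutamine and histidine by system N. SLC38A5 was the higher of this pair in the inhibitor experiment under each length. In the knockdown experiment their order turned with the length, since SLC38A5 had 2045 with its canonical transcript, above the 1721 of SLC38A2. SLC38A1 (SNAT1) followed at 508 and 333. The lysosomal members SLC38A9, an arginine sensor upstream of mTORC1, and SLC38A7, which exports glutamine from lysosomes, were at 184 and 172 and at 137 and 155. SLC38A6 and SLC38A3 had base means of 101 and 104 and of 19.6 and 31.1, while SLC38A4, SLC38A8 and SLC38A11 stayed at 0.672 or less.

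Among the SLC36 carriers, SLC36A4 had levels per kilobase of 180.4 and 211, and SLC36A1 (PAT1), which is found on lysosomes, had 114 and 109. SLC36A2 and SLC36A3 were at 0.162 or less. In the SLC43 family, SLC43A3 had levels per kilobase of 6584 and 6741. With the union of exons it had 3818 and 3909, below the 6188 and 8827 of SLC7A5, so its place beside SLC7A5 in the knockdown experiment rests on the length. SLC43A1 (LAT3), which carries large neutral amino acids without exchange, had 1408 and 1751, and SLC43A2 (LAT4), with the same substrates, had 29.5 and 16.8. SLC43A1 stood above its relative in both experiments and ranked next to SLC7A5 among the carriers of large neutral amino acids, SLC7A5, SLC7A8, SLC43A1 and SLC43A2.

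Some members of 1 family lie next to each other. On chromosome 12, SLC38A1, SLC38A2 and SLC38A4 follow each other on the minus strand from 46183063 to 46832408 with no other protein-coding gene between them. The base mean of SLC38A4 was 0 and 0.584, beside 4109 and 2698 for SLC38A1 and 8252 and 5667 for SLC38A2. On chromosome 5, SLC36A3 and SLC36A2 lie within 151276358 to 151347590, next to SLC36A1 on the opposite strand, and only SLC36A1 was above 10. On chromosome 16, the spans of SLC7A6 and SLC7A6OS, introns included, overlap by 17321 bases on opposite strands. As the TruSeq v2 kit marks no strand, reads from overlapping exons cannot be told apart by strand. How far the exons overlap was not measured. Their base means were 2346 and 2143 in the knockdown experiment and 2455 and 2360 in the inhibitor experiment.

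The base means of the experiments were then set beside each other. The tables were normalized separately, so each ratio of the inhibitor experiment over the knockdown experiment was divided by 0.953, the median ratio of the 10916 protein-coding genes whose base means reached 50 in both. Such a ratio holds the differences between untransduced and transduced cells, between 24 h and 48 h, and in the use of DMSO as solvent. It also holds the effects of the hairpins and of MC2580, and none of these can be told apart. Base means of 50 or more in both were found for 23 of the transporter genes, and 7 of these were higher in the inhibitor experiment by over 1.25-fold, against 22.2% of the protein-coding genes. A further 5 were lower by over 1.25-fold, against 23.0% of the protein-coding genes. The shares of 7 and 5 in 23 are near this background, and the median ratio of the 23 genes was 1.10. No gene reached 2-fold either way. Of the 7 myeloid markers with such a ratio, 6 were higher by over 1.25-fold, with a median of 1.71, and their part in the ratios of the transporters was not tested.

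The heavy chain and its main partner lay side by side in this order. SLC7A5 had a ratio of 1.496 and SLC3A2 a ratio of 1.47, and both were above the 90th percentile of protein-coding genes, which was 1.46. SLC7A7, at 1.89, and SLC38A5, at 1.55, were the other members beyond it. The ratio of SLC7A7 rests on base means of 50.6 and 91.5, the lowest of the genes with a ratio, and the first barely passed the limit of 50. SLC1A3, SLC38A10 and SLC43A1 had ratios from 1.30 to 1.36. SLC1A5 and SLC43A3 were closer to 1, at log2 ratios of 0.07 and 0.10, and without scaling or scaled by the sum of the base means the log2 ratio of SLC1A5 was 0.0015 and -0.022. At the other end, SLC43A2 had a ratio of 0.598 and SLC7A11 a ratio of 0.626, both under the 10th percentile of 0.665. SLC38A1 at 0.689, SLC38A2 at 0.720 and SLC7A1 at 0.782 were the other genes lower by over 1.25-fold.

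**Figure D2:**
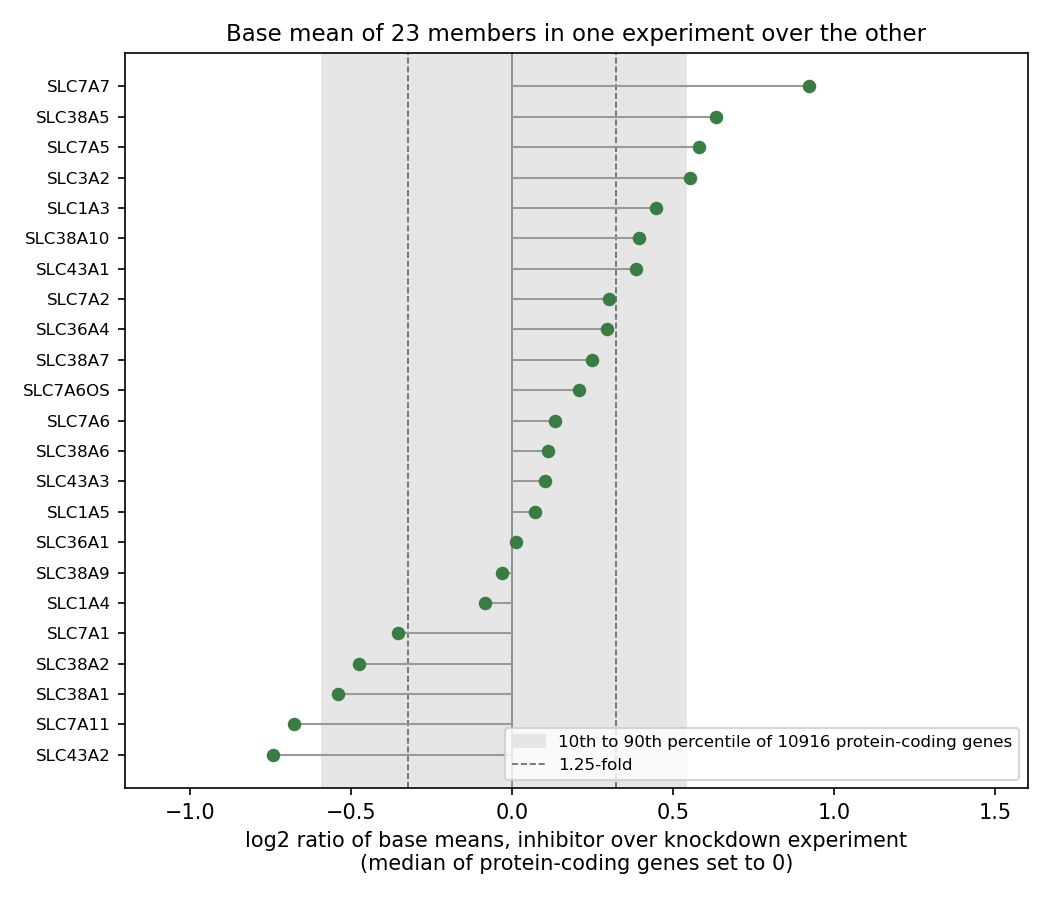
Log2 ratio of the base mean in the inhibitor experiment over that in the knockdown experiment (x axis, median of protein-coding genes set to 0) for the 23 genes whose base means reached 50 in both (y axis), with dashed lines at 1.25-fold and a grey band from the 10th to the 90th percentile of 10916 protein-coding genes. SLC7A7, SLC38A5, SLC7A5 and SLC3A2 lie right of the band at 0.92, 0.63, 0.58 and 0.55, and SLC43A2 and SLC7A11 lie left of it at -0.74 and -0.68. The point of SLC7A7 rests on base means of only 50.6 and 91.5.

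Of the 14 genes of the amino acid response, which acts through the kinase GCN2 (EIF2AK4) and ATF4 and is known to raise several transporters, all reached a base mean of 10 in both experiments. ATF4 itself had base means of 22131 and 27295 and a ratio of 1.29. Of the 13 with a ratio, 2 were higher and 5 lower by over 1.25-fold in the inhibitor experiment, beside 22.2% and 23.0% of protein-coding genes. The lowest were SESN2 at 0.347, VLDLR at 0.485, EIF2AK4 at 0.618 and ASNS, asparagine synthetase, at 0.661. SESN2, a leucine sensor, also belongs to the list of mTORC1 amino acid sensing, of whose 23 genes with a ratio 6 were higher and 4 lower, near the same background of 22.2% and 23.0%. Of 20 amino acid carriers of other families, 19 were found by symbol. A base mean of 10 was reached by 13 in the knockdown experiment and 12 in the inhibitor experiment, beside 63.1% and 63.0% of protein-coding genes. Of the 12 with a ratio, 1 was higher and 4 lower by over 1.25-fold, beside the same 22.2% and 23.0%. The highest per kilobase was the mitochondrial glycine carrier SLC25A38 at 1194 and 1229. The taurine carrier SLC6A6 had levels per kilobase of 774 and 606.

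Promoter windows were found by symbol for 32 of the 41 genes, 21 that reached a base mean of 10 in both experiments and 11 below 10 in both. SLC43A3, SLC7A2, SLC7A11 and SLC38A3 reached 10 but had no window, so no motif was searched for them. The number of CpG dinucleotides in the 300 bases had a median of 20 in the former and 8 in the latter, and the ranges of 1 to 49 and 2 to 33 overlap. The same medians over protein-coding genes were 26 for 9674 genes and 8 for 4919 genes. SLC7A5 held 44 CpG and SLC7A1 held 49, whereas SLC38A1 at 6 and SLC36A1 at 2 were expressed with few, and SLC1A1 held 33 at a base mean of 3.86. The C/EBP-ATF motif shown above occurred in 19.0% of the 21 windows, which are 4 genes, in 2.50% of all protein-coding windows and in 1.67% of those of genes that reached a base mean of 10 in both experiments. The E-box occurred in 4 of the 21 windows as well, in 8.93% of all protein-coding windows and in 10.3% of those of expressed genes, while the antioxidant response element core TGACNNNGC occurred in 5 of the 21, those of SLC7A5, SLC3A2, SLC7A1, SLC7A6 and SLC7A7, in 14.3% of all and in 15.1% of those of expressed genes. A match is a description of the letters only, and no binding was measured here.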

How the data were processed

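RNA was extracted with the RNeasy Mini kit and libraries were made with TruSeq RNA v2. Per the labels' processing notes and the paper's methods, the authors used STAR 2.7 with hg38, RSEM for quantification and DESeq2 for comparisons, and the gene annotation release is not given in the sources used here. Each deposited signal value used here is a base mean made by the authors, an average of counts divided by DESeq2 size factors. It was taken to cover all libraries of an experiment, although the knockdown value bears the code of shB2 alone. The tables also hold the authors' own log2 fold changes, their standard errors, Wald statistics and p-values, which were not used here, and no values per library were at hand to test. The planned count-based comparison between conditions was therefore not run.

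Gene positions and lengths came from GENCODE release 44 on GRCh38, matched by stable identifier for all 41 genes and for 19905 of 19975 protein-coding genes. Ratios between the experiments were centred on the median of protein-coding genes. The centring was run on simulated data with a planted shift, which checks the arithmetic only. Whether the median is the right centre between these experiments was not tested. Every transporter gene that reached a base mean of 10 was named with values, and so were those below it where a group was described. The members and lists were chosen with earlier results of these data known, and the limit of 1.25-fold, the ratio of SLC7A5 to SLC3A2 and the canonical length were chosen after seeing the data. Analysis used Python 3.11.15, pandas 2.3.3 and numpy 2.4.6.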

Additional observations from a re-analysis of the deposited data

How the results depend on the processing

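The base means carry no error and average treated with control libraries, so these data limit every statement to order and size. No paired analysis was possible because the tables used here hold no column per library, and for the same reason no library could be left out in turn and the count-based alternatives were not run. Between 22 and 29 genes in the knockdown experiment and between 22 and 31 in the inhibitor experiment passed floors of 1, 50 or 100, against 25 at 10. SLC1A5, SLC7A5, SLC43A3 and SLC3A2 were among the 5 highest under each length and without division by length. The gene beside them was SLC38A10, SLC38A2, SLC38A5 or SLC7A1, depending on the length and the experiment. The orders of SLC38A2 and SLC38A5 in the knockdown experiment, of SLC7A7 and SLC7A11 in the inhibitor experiment, and of SLC43A3 and SLC7A5 in the knockdown experiment turned with the length. The ratio of SLC7A5 to SLC3A2 moved to 2.74 and 2.79 without division by length, and to 3.68 and 3.75 with the union of exons and 1.13 and 1.16 with the canonical transcript, as SLC3A2 is annotated with a different length in each case. A limit of 1.5-fold left 2 genes higher and 2 lower between the experiments. For comparison, the 10th and 90th percentiles of the ratio over protein-coding genes were 0.665 and 1.46. Without scaling, or scaled by the sum of the base means, 6 and 5 genes were higher by over 1.25-fold and 5 lower each time. The shares of protein-coding genes under these scalings were not computed, so these counts have no background. The sign of the ratio depended on the scaling for SLC1A5 and SLC36A1, which were within 1.25-fold.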
